A study of Rattus norvegicus with 3 samples.

Results

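The response of fetal rat cardiomyocytes to medium conditioned by skeletal myoblasts was measured as the difference between 2 microarrays, 1 from cells given myoblast-conditioned medium and 1 from cells given fresh culture medium. Its members are all 14218 genes that at least 1 probe set names by a single symbol, which is every such gene of the series. Heart muscle cells of fetal Wistar rats were isolated by enzyme digestion, kept on plates for 48 h and then exposed for 24 h to fresh medium, to medium from skeletal myoblasts or to medium from cardiac fibroblasts. Each of these 3 groups is 1 sample on 1 array, and the labels name no genetic change, drug or oxidant in any of them. The series set out to ask how myoblasts act on cardiomyocytes through secreted factors that signal by the receptors c-Met and EGFR, in the setting of oxidative stress. Per the labels the cells are primary isolates, and the number of fetuses, the passage of the conditioning cells and the make-up of the media were not given in the sources used here.

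Skeletal myoblasts are the precursor cells of muscle fibres, and conditioned medium carries what such cells secrete into it. In mammalian cells a lack of amino acids activates the kinase GCN2, and misfolded protein in the endoplasmic reticulum (ER) activates the kinase PERK. Both phosphorylate the translation factor eIF2alpha, which lowers general protein synthesis and raises translation of the transcription factor ATF4. ATF4 and its partners of the C/EBP family induce genes for amino acid import, amino acid synthesis, tRNA charging and glutathione synthesis, a programme known as the integrated stress response. A separate branch, in which ATF6 and XBP1 bind ER stress response elements, induces ER chaperones. In heart muscle, the glucose-regulated genes Txnip and Arrdc4 encode alpha-arrestins that restrain glucose uptake and are induced by the sugar-sensing factor MondoA.

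The deposited values are log2 signals from which the median of the 3 arrays has been subtracted for each probe set, and the median array is left blank. A blank was read as 0. In the 17117 probe sets with 2 values, each value states how far an array lay from the middle array. Another 8002 probe sets held 1 value and 5980 held none, and a 0 there need not be a measured equality. No value gives an absolute level. For this reason the labelled cell type could not be checked by the level of cardiomyocyte markers, and how far a probe lay above background is unknown. A difference is the value on the myoblast-medium array minus that on the fresh-medium array, in log2 units, averaged over the probe sets of a gene. With 1 array a side no difference has a replicate check, no test was made, and "at least 2-fold" is a threshold of size only. In bulk RNA, fewer cells of a type and less RNA per cell cannot be told apart.

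Across the 14218 genes, 5546 differences lay above 0, 5719 lay below 0 and 2953 were exactly 0. A difference of exactly 0 can come from blanks on both arrays. The middle of the distribution was narrow, with a 5th percentile of -0.44 and a 95th of 0.50. Transcripts at least 2-fold higher with myoblast medium numbered 192 (1.35% of genes), and those at least 2-fold lower numbered 120 (0.844%). Differences of at least 4-fold were found for 23 genes in the higher direction and 7 in the lower. Of the 312 genes past 2-fold, 62 have several probe sets, and none of these had probe sets of opposite sign. The genes were picked by the mean of the same probe sets, which favours such agreement. A probe set at 0 was not counted as opposite, as for Fhl1, whose probe sets ran from 0.00 to 1.93. The 42 probe sets for RNAs added to every sample as controls, whose amounts are meant to be equal, had a median difference of 0.29 and an SD of 0.16. Centring on these control RNAs turned the split to 88 higher (0.619%) and 278 lower (1.96%), so that 24.0% of the called genes were higher, against 61.5% before; any difference or median between 0 and 0.29 changes sign on that scale. Within the controls the poly-A RNAs had a median of 0.34 and the hybridisation RNAs one of 0.10. The 3′ minus 5′ signal, a measure of RNA quality, differed between the arrays by -0.15 for beta-actin, 0.02 for GAPDH and 0.01 for hexokinase.

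**Figure D1:**
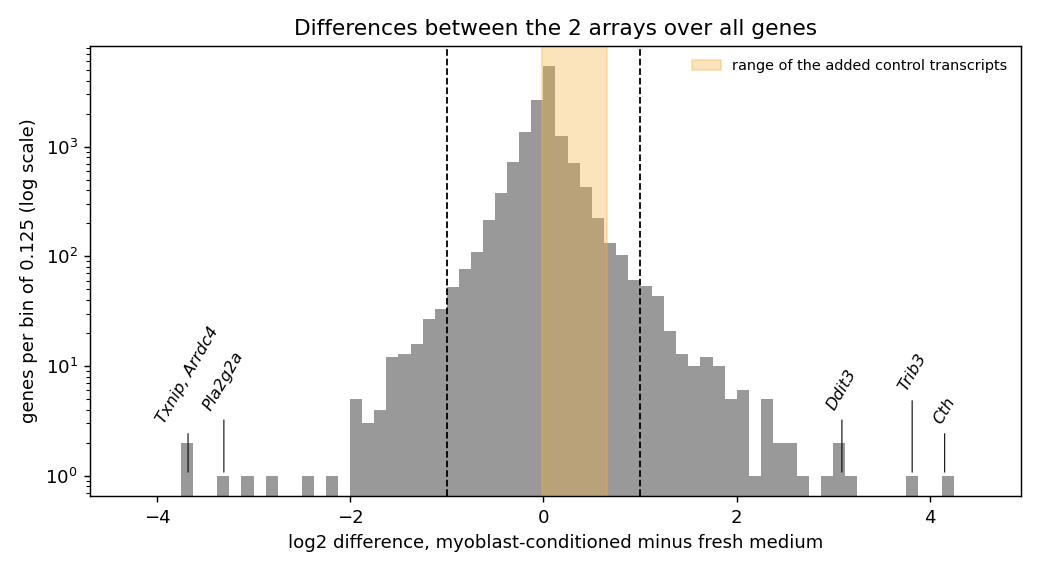
Number of genes by log2 difference between myoblast-conditioned and fresh medium (1 array each; the count axis is logarithmic), with dashed lines at the 2-fold threshold and a shaded band over the range of the added control RNAs (-0.01 to 0.66). The 14218 genes centre on 0, with 192 past the right line and 120 past the left; named genes mark the far ends.

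Genes of the integrated stress response were prominent among the positive differences. Across 5 lists that cover its regulators, tRNA charging, amino acid synthesis, sulfur amino acids and amino acid transport, 41 of 122 measured genes (33.6%) were at least 2-fold higher and only Cdo1 was at least 2-fold lower. Over all genes the shares were 1.35% higher and 0.844% lower, and every list count below is to be read beside them. These 41 made up 21.4% of all genes past the threshold in that direction. The lists were chosen with earlier results of these data known, which favours high shares, so neither share is a test. With the added control RNAs as the centre, 29 of the 122 stayed at least 2-fold higher, where 0.619% of all genes were. The median difference over the 122 was 0.53, where that of all genes was 0.00.

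Of 27 regulators, 11 passed 2-fold upward and none downward, and the median was 0.74. Trib3, a pseudokinase that binds and restrains ATF4, stood at -0.95 with fresh medium, 2.86 with myoblast medium and 0.00 with fibroblast medium (3 probe sets). Its difference of 3.82 was 14.1-fold, and its 3 probe sets ranged from 3.72 to 3.97. Ddit3 encodes CHOP, the transcription factor of prolonged ER stress. Its values were 0.00 with fresh, 3.09 with myoblast and -0.20 with fibroblast medium, so only the myoblast-medium array stood apart, by 8.51-fold. Ppp1r15a, the phosphatase subunit that reverses eIF2alpha phosphorylation, lay at -0.57, 1.47 and 0.00 on the same arrays in that order, a difference of 2.04. Atf4 itself was higher by 1.59, at -0.59, 1.003 and 0.00. Gdf15, a secreted stress hormone, differed by 1.70, and Sesn2, an inhibitor of mTORC1 signalling, by 1.40. Some regulators had their highest value with fibroblast medium instead. Nupr1 stood at -1.41, 0.00 and 0.60, and Cebpb at -1.04, 0.00 and 0.74, in the order fresh, myoblast and fibroblast. Atf3, another target of the pathway, differed by 0.38, and the secreted factor Fgf21 by 0.15.

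Promoter sequences are shown for 3 genes of the amino acid response lists (Trib3, Chac1 and Tars1) and 4 of the ER lists (Herpud1 here, the others with the ER results), because both branches act through known short DNA elements. RefSeq promoters (GRCr8, 250 bases before to 50 after the start) matched 11734 of the 14218 genes by symbol. The element bound by C/EBP and ATF factors was searched on both strands as TTGCATCA, and in a looser form as TTNCATCA, which includes the first. Capitals mark the element on the gene's own strand, 5′ to 3′.
Trib3, chr3:161275484-161275783, minus strand: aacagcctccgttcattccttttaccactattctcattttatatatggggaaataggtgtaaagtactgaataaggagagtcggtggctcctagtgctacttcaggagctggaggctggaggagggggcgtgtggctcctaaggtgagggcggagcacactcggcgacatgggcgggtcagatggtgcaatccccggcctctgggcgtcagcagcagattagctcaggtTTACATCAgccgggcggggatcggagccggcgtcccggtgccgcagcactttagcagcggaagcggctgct
Chac1, chr3:126795881-126796180, plus strand: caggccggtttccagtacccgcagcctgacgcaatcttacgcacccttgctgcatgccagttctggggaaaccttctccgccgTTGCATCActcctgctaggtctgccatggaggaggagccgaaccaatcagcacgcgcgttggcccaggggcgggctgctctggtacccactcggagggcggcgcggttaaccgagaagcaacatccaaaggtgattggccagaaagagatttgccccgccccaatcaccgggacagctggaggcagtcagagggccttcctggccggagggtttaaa
Tars1, chr2:62114753-62115052, minus strand: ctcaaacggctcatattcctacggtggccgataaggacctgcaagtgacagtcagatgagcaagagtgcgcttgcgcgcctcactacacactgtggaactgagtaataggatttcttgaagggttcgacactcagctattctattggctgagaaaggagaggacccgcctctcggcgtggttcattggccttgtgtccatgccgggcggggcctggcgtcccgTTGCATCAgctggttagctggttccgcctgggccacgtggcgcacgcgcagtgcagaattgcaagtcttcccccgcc
Herpud1, chr19:10614658-10614957, minus strand: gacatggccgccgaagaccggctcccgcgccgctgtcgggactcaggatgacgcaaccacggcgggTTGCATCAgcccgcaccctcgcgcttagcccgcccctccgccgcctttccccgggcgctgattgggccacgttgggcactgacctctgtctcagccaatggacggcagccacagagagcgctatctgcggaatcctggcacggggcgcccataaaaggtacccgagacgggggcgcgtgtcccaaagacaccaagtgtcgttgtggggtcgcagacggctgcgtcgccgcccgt
The stricter form was found in 0.614% of all matched promoters. It was present in 7 of 38 matched promoters (18.4%) of amino acid response genes at least 2-fold higher, and in 8 of 65 (12.3%) of the other genes on those lists. The 7 genes were Chac1, Iars1, Nars1, Nupr1, Slc1a4, Tars1 and Yars1. In the looser form the shares were 10 of 38 (26.3%), 9 of 65 (13.8%) and 2.21% of all promoters. Counted from the gene's start, the element begins at base -167 in Chac1, -27 in Tars1, -184 in Herpud1 and -21 in Trib3. A match describes the letters only.

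Sulfur amino acid genes held the largest difference of all. Cth, the enzyme that makes cysteine from cystathionine, stood at -2.96 with fresh medium, 1.19 with myoblast medium and 0.00 with fibroblast medium. The difference was 4.15, or 17.8-fold, and the fresh-medium array was far below both others. Cystine import showed the same order of arrays. Slc7a11, the transport subunit of the cystine/glutamate antiporter, lay at -0.93, 2.07 and 0.00 (difference 3.00), and its partner chain Slc3a2 at -0.32, 1.38 and 0.00 (1.69). Gclc, the catalytic subunit for the first step of glutathione synthesis, was higher by 1.13 over 2 probe sets. Its modifier Gclm differed by 0.58. Chac1, which cleaves glutathione in the cytosol, was also higher, at -0.36, 1.98 and 0.00. Ggct, a further member of this list, lay at -0.04, 1.71 and -0.10. In the opposite direction, Cdo1, which oxidises cysteine towards taurine, lay at 0.00, -1.16 and 2.37. The myoblast-medium array was thus the lowest for Cdo1 and the fibroblast-medium array the highest. Over all 22 genes of this list, 6 passed 2-fold upward and 1 downward, but the median was only 0.07. Centred on the added control RNAs, that median turned to -0.21, with 5 genes higher and 1 lower. The list's fibroblast-minus-fresh median was larger, at 0.23 before such centring.

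Amino acid synthesis was higher at the serine and mitochondrial folate steps. Asns, which makes asparagine, stood at -0.97, 1.35 and 0.00 on the fresh, myoblast and fibroblast arrays, a difference of 2.31. All 3 enzymes of serine synthesis were at least 2-fold higher, Psph by 1.64, Phgdh by 1.52 and Psat1 by 1.07; centred on the control RNAs, Psat1 was not. Serine feeds the folate cycle, which runs in parallel in the mitochondrion and the cytosol. In the mitochondrion, Mthfd2 stood at -0.78, 1.31 and 0.00 (difference 2.09), Mthfd1l was higher by 1.65 and Shmt2 by 1.35, while Aldh1l2 differed by 0.30. The cytosolic counterparts Mthfd1 (0.50), Shmt1 (0.43) and Aldh1l1 (0.00) all stayed under 2-fold. Over the list of 24 genes, 9 passed 2-fold upward (6 on the control RNA scale) and none downward, and the median was 0.67. Pck2, the mitochondrial phosphoenolpyruvate carboxykinase, and Bcat1, the cytosolic branched-chain aminotransferase, were among the 9, at 1.19 and 1.02.

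Aminoacyl-tRNA synthetases charge tRNAs with their amino acids, and separate nuclear genes encode most cytosolic and mitochondrial forms. Of 19 cytosolic synthetase genes, 8 exceeded 2-fold, and the list median was 0.91. Of 13 mitochondrial ones none did, which is near the share over all genes (1.35%), and their median was 0.02. Among 12 amino acids with both forms measured, the cytosolic gene had the larger difference in all 12, by a median of 1.10. The widest gap was for serine, where Sars1 differed by 1.31 and Sars2 by 0.00. The narrowest was for arginine, at 0.48 for Rars1 and 0.40 for Rars2. Centring shifts both forms alike and leaves these gaps as they are, but moves the mitochondrial median to -0.27 on the added control RNAs. On that scale 5 of the cytosolic genes stayed at least 2-fold higher. Xpot, the exportin that carries tRNAs out of the nucleus, is on none of the lists; it was singled out after its value of 1.70 was seen.

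**Figure D2:**
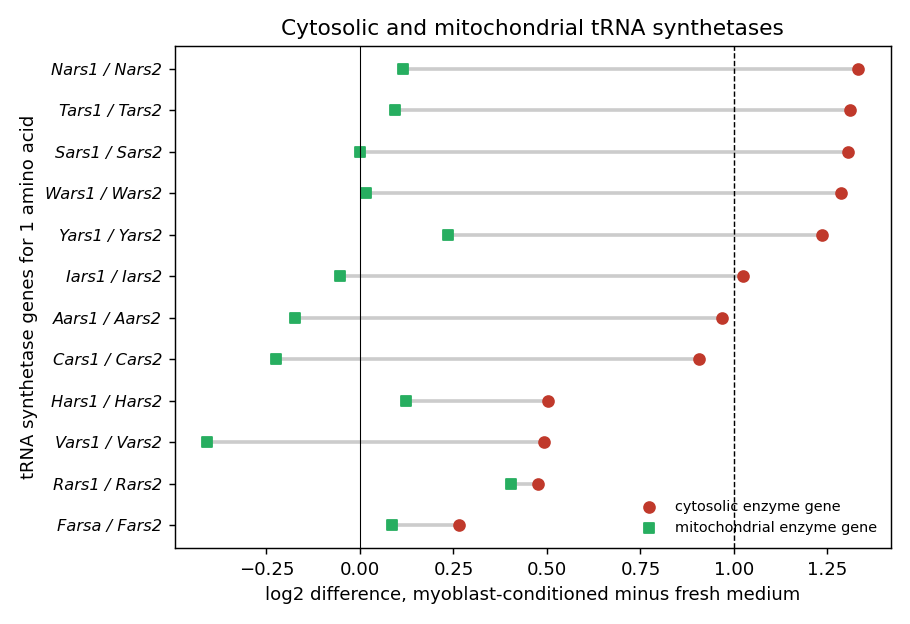
Log2 difference between myoblast-conditioned and fresh medium (x axis) for the cytosolic (circles) and mitochondrial (squares) tRNA synthetase gene of 12 amino acids, 1 array a side, with a dashed line at 2-fold. The cytosolic gene lies to the right in all 12 pairs, from Nars1 at 1.33 down to Farsa at 0.26.

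Among 33 genes on the amino acid transporter list, 10 passed 2-fold upward and none downward, and the median was 0.41. The cationic amino acid carrier Slc7a3 stood at -0.76 with fresh, 1.76 with myoblast and 0.00 with fibroblast medium, a difference of 2.52. The related Slc7a1 was higher by 1.496, although its 3 probe sets spread from 0.54 to 2.07. Slc7a5, the carrier of large neutral amino acids, lay at -0.99, 0.88 and 0.00 and shares the chain Slc3a2 with Slc7a11. The neutral amino acid exchangers Slc1a4 and Slc1a5 were higher by 1.85 and 1.27, and the glycine transporter Slc6a9 by 1.11. Slc38a2, a further transporter of small neutral amino acids, reached only 0.49. The list also holds Slc6a6, a taurine transporter, at 1.10, and Slc25a33, a mitochondrial pyrimidine nucleotide carrier, at 2.37. The latter lay at -0.37, 1.99 and 0.00.

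ER genes were higher as well, more in the chaperone list than in the degradation list. Of 26 chaperones and disulfide isomerases, 9 passed 2-fold upward and none downward, and the median was 0.51. With the control RNAs as the centre, 4 remained at least 2-fold higher. Creld2, a secreted ER stress protein, stood at 0.00 with fresh, 2.44 with myoblast and -0.05 with fibroblast medium, so that fresh and fibroblast medium lay together. Sdf2l1, a partner of the ER DnaJ proteins, lay at -1.17, 1.19 and 0.00. Dnajc3, which inhibits PERK, was higher by 1.82 and the cochaperone Dnajb9 by 1.497. Hspa5 encodes BiP, the central chaperone of the ER. It was at 0.00, 1.05 and -0.21, a 2.07-fold difference, and the neurotrophic ER factor Manf at 0.00, 1.23 and -0.41. The lectin chaperone Calr differed by 0.45. Of 22 genes for ER-associated degradation and the stress sensors, only Herpud1, a part of the degradation complex, was at least 2-fold higher, at 0.00, 2.03 and -0.10. The median of that list was 0.36, and Xbp1 differed by 0.47.

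The ER stress response element was searched as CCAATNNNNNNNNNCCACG on both strands, and 3 promoters that hold it are shown with the element in capitals. In Creld2 the element lies on the opposite strand and is marked there as it reads on the gene's strand.
Creld2, chr7:121789134-121789433, plus strand: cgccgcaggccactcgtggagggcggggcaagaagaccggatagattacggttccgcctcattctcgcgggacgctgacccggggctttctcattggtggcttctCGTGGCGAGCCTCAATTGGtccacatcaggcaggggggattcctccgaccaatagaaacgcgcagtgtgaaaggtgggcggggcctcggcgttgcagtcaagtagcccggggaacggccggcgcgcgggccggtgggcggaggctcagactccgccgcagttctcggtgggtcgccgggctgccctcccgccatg
Hspa5, chr3:38452766-38453065, plus strand: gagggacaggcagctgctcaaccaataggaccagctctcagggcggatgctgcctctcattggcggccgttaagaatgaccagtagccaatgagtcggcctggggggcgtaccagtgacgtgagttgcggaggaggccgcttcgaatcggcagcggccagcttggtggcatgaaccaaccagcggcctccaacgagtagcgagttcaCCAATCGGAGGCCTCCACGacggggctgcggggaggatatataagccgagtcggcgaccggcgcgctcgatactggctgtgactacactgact
Dnajc3, chr15:102432417-102432716, plus strand: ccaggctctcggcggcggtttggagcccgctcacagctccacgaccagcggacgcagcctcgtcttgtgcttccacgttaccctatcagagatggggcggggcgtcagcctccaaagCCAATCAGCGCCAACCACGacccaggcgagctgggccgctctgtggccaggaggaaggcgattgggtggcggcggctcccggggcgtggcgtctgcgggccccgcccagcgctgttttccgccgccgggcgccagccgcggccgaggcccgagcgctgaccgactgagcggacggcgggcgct
This element was found in 17 of 11734 promoters (0.145%). Of 41 matched promoters on the ER lists, 8 held it (19.5%), those of Calr, Canx, Creld2, Dnajc3, Ero1b, Hsp90b1, Hspa5 and Xbp1. It was in 0 of the 38 and 0 of the 65 matched promoters of the amino acid response lists. Herpud1, shown above, carries the C/EBP-ATF element and was the 1 ER gene of 41 that did. Only the 19-base form of the ER stress response element was searched. That Herpud1 is not among the 8 therefore does not mean that its promoter lacks every form of it.

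**Figure D3:**
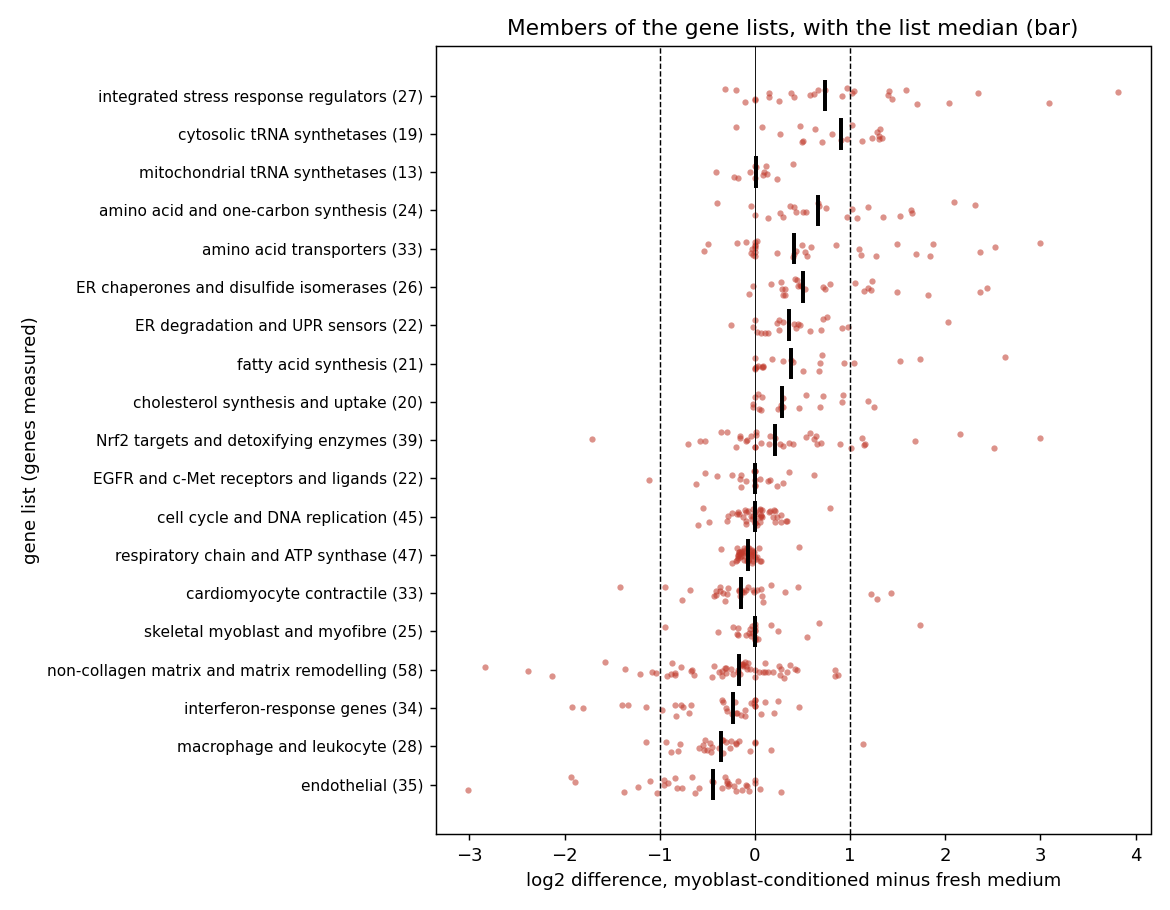
Log2 difference between myoblast-conditioned and fresh medium for every measured gene of the lists drawn (points, with the number of genes in brackets) with each list's median (bar) and dashed lines at 2-fold; 1 array a side. The cytosolic tRNA synthetases have the highest median (0.91) and the endothelial markers the lowest (-0.44).

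In the cell death list, 3 of 26 apoptosis and survival genes passed 2-fold upward and none downward. Casp12, a caspase at the ER membrane of rodents, lay at -1.05 with fresh, 0.54 with myoblast and 0.00 with fibroblast medium. Casp4, an inflammatory caspase, lay at -0.29, 1.58 and 0.00, and the mitophagy receptor Bnip3 at 0.00, 1.52 and -0.11. The list median was 0.03. Of 22 p53 targets and growth arrest genes, Sesn2, Gadd45a and Cdkn1a were at least 2-fold higher, the latter pair by 1.05 and 1.04. With the control RNAs as the centre only 1 of the 3 was. Before such centring, the fibroblast-minus-fresh medians of the apoptosis and p53 lists were 0.19 and 0.35, and the myoblast-minus-fresh ones 0.03 and 0.05. None of 45 cell cycle and DNA replication genes passed 2-fold in either direction. Over all genes only 1.35% were higher and 0.844% lower by that much, so a list of this size may hold none.

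At the other end, 2 alpha-arrestin genes had the largest negative differences. Txnip stood at 1.03 with fresh, -2.64 with myoblast and 0.00 with fibroblast medium, a 12.8-fold difference. Arrdc4 lay at 1.001, -2.64 and 0.00, almost the same values. The remaining alpha-arrestins did not share this pattern, with Arrdc1 at -0.11, Arrdc2 at 0.00 and Arrdc3 at 0.00. Mlx and Mlxipl, sugar-sensing factors on the same list, differed by 0.34 and -0.04. The value for Mlxip, the gene of MondoA itself, is not given here. Klf10, a transcription factor that glucose also induces, differed by -1.02 on the log2 scale. Hk2 and Eno2, enzymes of glycolysis, were higher by 1.24 and 1.63, and the muscle form of phosphoglycerate mutase, Pgam2, was at 1.20, 0.00 and -2.04. Over 28 glycolysis genes the median was 0.19, which turned to -0.10 when centred on the control RNAs. The CACGTG E-box was found in 2 of 10 matched promoters of the alpha-arrestin and glucose list, those of Arrdc4 and Mlx. Its share was 8.91% in all promoters and 21.1% (8 of 38) in amino acid response genes at least 2-fold higher. In the other genes on those lists it was 13.8% (9 of 65), and on the ER lists 9.76% (4 of 41). Txnip had no matched promoter and was not searched.

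**Figure D4:**
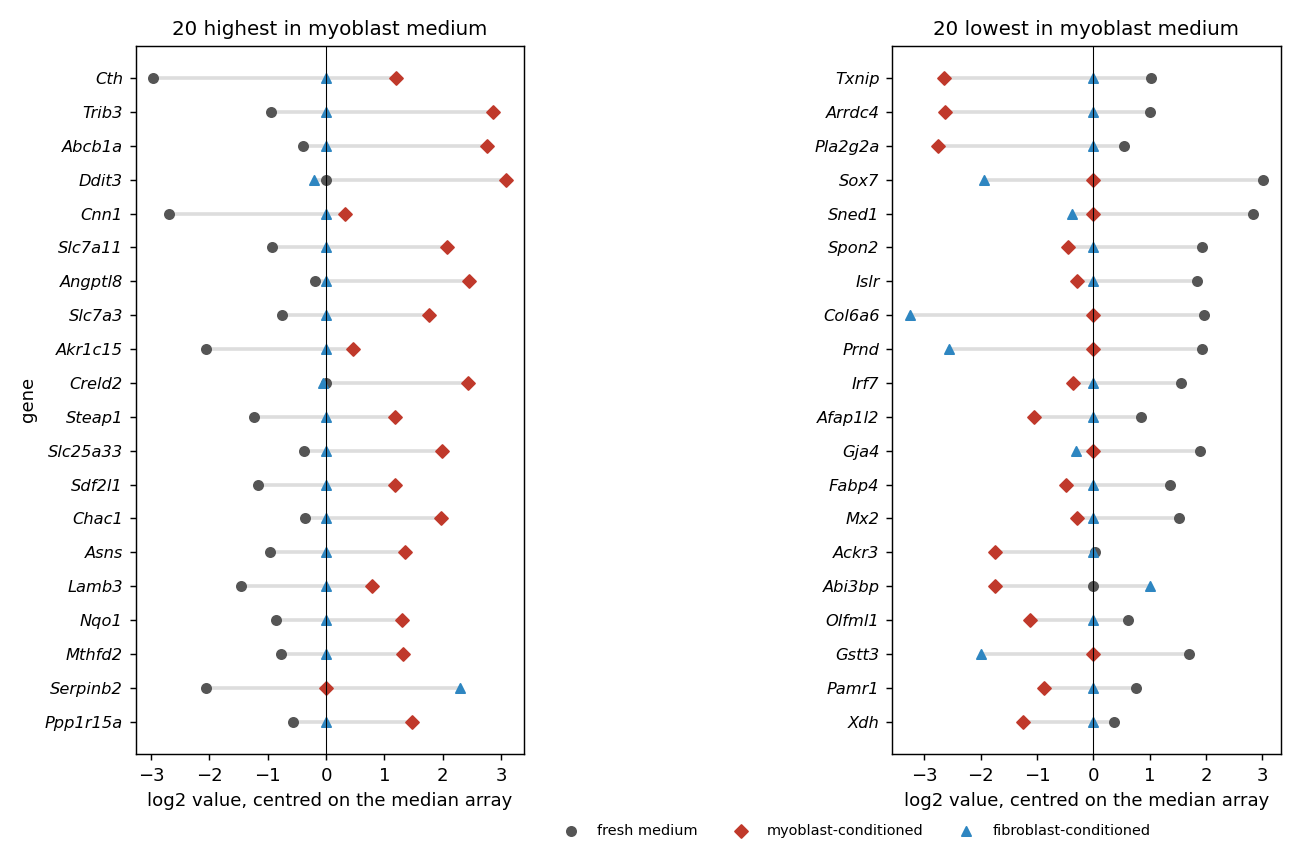
Log2 values centred on the median array (x axis) for the 20 genes with the largest positive (left) and negative (right) differences; circles are fresh medium, diamonds myoblast-conditioned and triangles fibroblast-conditioned medium, 1 array each. For Ddit3 and Creld2 only the myoblast-medium value stands apart, whereas for Cnn1 and Sned1 the fresh-medium value does.

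Of 39 Nrf2 targets and detoxifying enzymes, 8 passed 2-fold upward and 1 downward. The median of 0.22 turned to -0.07 when centred on the control RNAs, with 4 past 2-fold upward. The list's fibroblast-minus-fresh median was larger, at 0.36 before such centring. Nqo1, a quinone reductase and a standard target of the oxidant-sensing factor Nrf2, stood at -0.86 with fresh, 1.30 with myoblast and 0.00 with fibroblast medium. Akr1c15, an aldo-keto reductase, lay at -2.06, 0.46 and 0.00, and Akr1b8, of the same superfamily, at -0.68, 0.9998 and 0.00. Haem oxygenase Hmox1 was higher by 1.01 and sulfiredoxin Srxn1 by 1.15. Not all conjugating enzymes went this way, as the glutathione transferase Gstt3 was at 1.71, 0.00 and -1.99. The metal-binding metallothioneins Mt2A and Mt1 were higher by 1.75 and 1.503, but they were the only ones of 28 antioxidant genes past 2-fold before control centring, and the median there was -0.04. Abcb1a, a drug efflux pump, lay at -0.39, 2.76 and 0.00 over 2 probe sets, an 8.93-fold difference. Abcc3, another efflux pump, was at 1.20, 0.00 and -0.61. A further 11 efflux transporters stayed under 2-fold.

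Of 18 hypoxia-response genes, 5 were at least 2-fold higher: Bnip3, Stc2, Ankrd37, P4ha1 and Hmox1. On the control RNA scale 3 were. The median was 0.45, while Vegfa reached 0.98 and Adm -0.02. Lipid synthesis was partly higher, as 4 of 21 fatty acid synthesis genes passed 2-fold upward. The lipogenic transcription factor Srebf1 lay at -0.55, 0.97 and 0.00, the desaturase Scd at -0.90, 0.83 and 0.00, and Angptl8, a regulator of lipoprotein lipase, at -0.18, 2.45 and 0.00. Fatty acid synthase, Fasn, differed by 0.51. Of 20 cholesterol genes, Fdps and Cyp51 were at least 2-fold higher, at 1.25 and 1.19, and neither was with the control RNAs as the centre. The cholesterol list's median was 0.28 and lay just below 0 on that scale. Its fibroblast-minus-fresh median was larger, at 0.74 before such centring. Of 34 fatty acid oxidation genes and 47 respiratory chain genes, only the fatty acid binding protein Fabp4 passed 2-fold, at 1.36, -0.48 and 0.00, and endothelial cells and adipocytes are its main known sources.

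The receptors named in the study's title showed little transcript difference at 24 h. Met, the receptor of hepatocyte growth factor, stood at 0.00 with fresh, -0.01 with myoblast and 0.06 with fibroblast medium. Egfr was lower by 0.40, but its 3 probe sets ran from -0.84 to 0.00. Among ligands, Hgf was listed at 0.00 on all 3 arrays, Hbegf differed by 0.23 and Areg by 0.16. Errfi1, a feedback inhibitor of EGFR that EGFR signalling induces, lay at 0.03, -1.08 and 0.00 and was the single gene of 22 past 2-fold. Of 32 immediate-early and MAPK feedback genes, Myc was at least 2-fold higher, at -1.20, 0.60 and 0.00, and Errfi1 at least 2-fold lower. Egr1 differed by -0.67 and the feedback inhibitor Spry1 by -0.72. These transcripts do not report receptor activity or phosphorylation, which the arrays do not measure.

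Several secreted inflammatory genes were lower with myoblast medium and some of them were far higher with fibroblast medium. Pla2g2a, a secreted phospholipase of inflammation, stood at 0.55 with fresh, -2.76 with myoblast and 0.00 with fibroblast medium, a 9.90-fold difference. Ccl2, a chemokine that draws monocytes, lay at 0.00, -1.21 and 3.58. Cxcl1, a neutrophil chemokine, lay at 0.00, -1.18 and 3.71. The complement component C3 was at 0.00, -1.18 and 1.65, and the alarmin Il33 at 0.00, -1.09 and 0.72. Not every cytokine had this order, since Il6 was listed at 0.00 with both fresh and myoblast medium and at 4.29 with fibroblast medium. Pla2g2a and C3 belong to the complement and phospholipase list. There 3 of 18 genes passed 2-fold downward and none upward, and the median was -0.18. Of the 38 genes on the inflammatory list, which holds neither, 6 passed 2-fold downward and none upward, and the median was -0.05. The fibroblast-minus-fresh median for the same list was 0.90; both differences use the same fresh-medium array.

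The chemokine Cxcl12 and both of its receptors were at least 2-fold lower. Cxcl12 stood at 0.00, -1.53 and 0.65 on the fresh, myoblast and fibroblast arrays, and its 3 probe sets ran from -1.63 to -1.41. Cxcr4, its signalling receptor, lay at 1.52, 0.00 and -1.06, with probe sets from -1.64 to -1.43. Ackr3, the atypical receptor that takes up the ligand, lay at 0.03, -1.74 and 0.00. The arrays were ordered differently in each, and myoblast medium lay below fresh medium in all 3. Each is among the 40 largest negative differences; the trio was put together after the values were seen.

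Of 34 interferon-response genes, 5 passed 2-fold downward and none upward, and the median was -0.23. Irf7, the transcription factor that amplifies type I interferon, stood at 1.56 with fresh, -0.36 with myoblast and 0.00 with fibroblast medium. Mx2, an antiviral GTPase, lay at 1.52, -0.29 and 0.00 over 2 probe sets, and the ubiquitin-like Isg15 at 1.10, -0.23 and 0.00. For these genes the fresh-medium array was the one that stood apart. Usp18, which removes Isg15 from proteins, and Rtp4 were lower by differences of -1.14 and -1.39. Members such as Ifit3 at -0.04 and Mx1 at -0.30 differed little. Centred on the control RNAs, 10 of the 34 were at least 2-fold lower.

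Matrix and fibroblast genes were lower in part. Of 58 non-collagen matrix genes, 8 passed 2-fold downward and none upward, and the median was -0.16; centred on the control RNAs, 14 passed downward. Sned1 stood at 2.84 with fresh, 0.00 with myoblast and -0.38 with fibroblast medium, and Spon2 at 1.93, -0.45 and 0.00. Mfap2, a microfibril component, lay at 1.58, 0.00 and -0.73. Abi3bp, an extracellular matrix protein off the list, was at 0.00, -1.75 and 1.01. Among 22 collagens, Col6a6 was lower and Col8a2 higher, at 1.97, 0.00 and -3.26 and at -1.16, 0.00 and 1.10. The bulk fibrillar collagens barely differed, Col1a1 by -0.04 and Col3a1 by -0.13. Of 20 fibroblast markers, Islr, Pdgfra and Dpt were at least 2-fold lower, and Pdgfra, a growth factor receptor of mesenchymal cells, lay at 1.42, 0.00 and -0.06.

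Endothelial markers were the list with the lowest median, at -0.44, and 31 of 35 differences were below 0. At least 2-fold lower were 7, and on the control RNA scale 13. Sox7, an endothelial transcription factor, stood at 3.01 with fresh, 0.00 with myoblast and -1.93 with fibroblast medium. The gap junction gene Gja4 lay at 1.89, 0.00 and -0.31, and the adhesion molecule Pecam1 at 1.23, 0.00 and -1.60. Other defining markers differed less, Kdr by -0.30, Vwf by -0.13 and Tek by 0.05. For macrophages and leukocytes the median was -0.36, with 24 of 28 differences below 0, among them Cd68 at -0.52, Csf1r at -0.55 and Ptprc at -0.34; 1 gene was past 2-fold in each direction, and 5 downward and 0 upward on the control RNA scale. Of 39 Notch, BMP and TGF-beta genes, 2 passed 2-fold downward (Notch1 and Hey1) and Id3 upward, with 18 differences above 0, 15 below and a median of 0.00; on the control RNA scale 3 passed downward and none upward. Notch1, a receptor active in endothelium, lay at 1.14, 0.00 and -0.19, its target Hey1 at 1.60, 0.00 and -1.04, and Hey2 at 0.88, 0.00 and -0.87. The part of these cell type markers in the lower values of interferon, inflammatory and matrix genes and of Notch1, Hey1 and Hey2 was not tested. The values give no summed marker level for a group, since each gene is centred. Erythroid genes had a median of -0.02, with Hbb at 1.001, 0.00 and -3.32. A probe set for 5S ribosomal RNA was lower by a difference of -1.08.

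**Figure D5:**
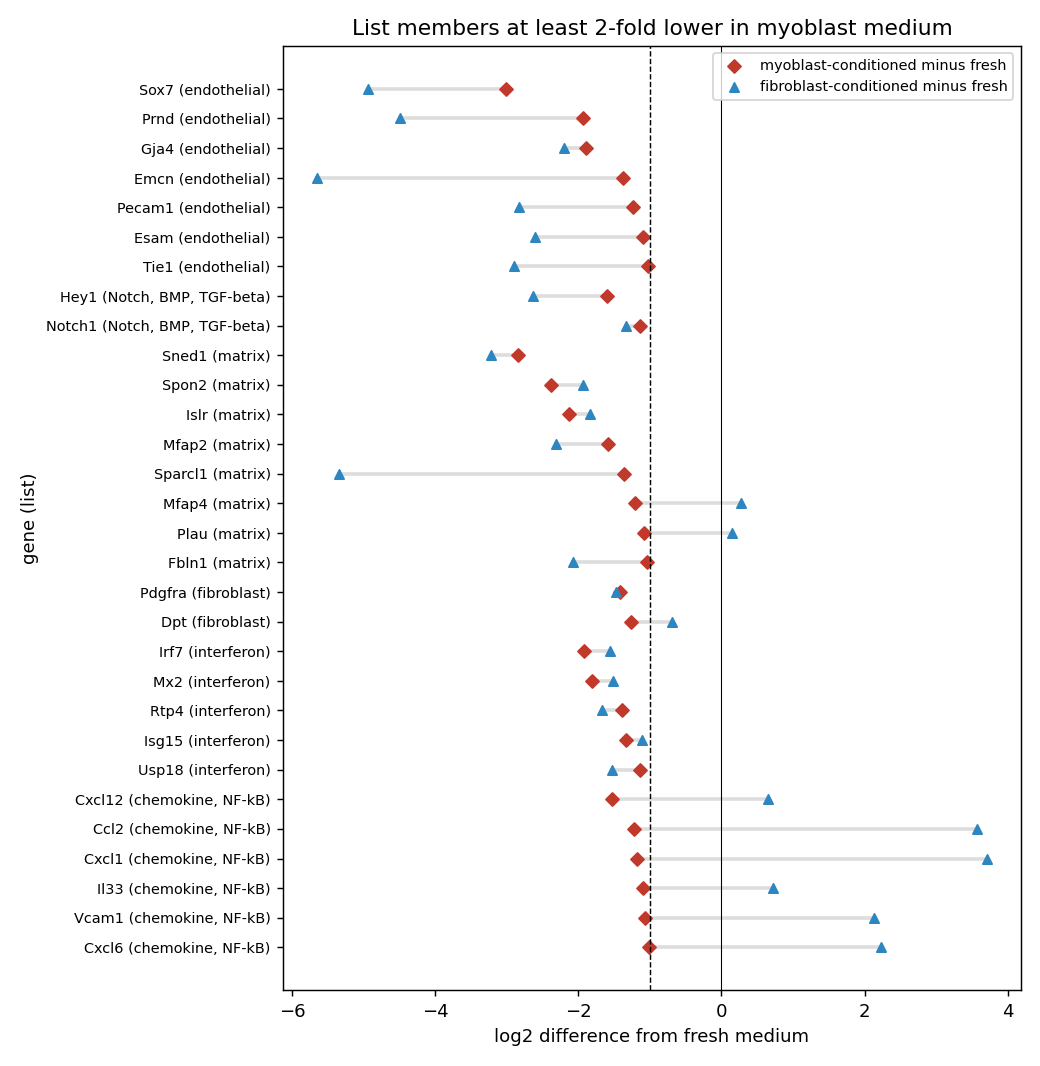
Log2 difference from fresh medium (x axis) for 30 list genes at least 2-fold lower with myoblast-conditioned medium. Only the endothelial, Notch/BMP/TGF-beta, matrix, fibroblast, interferon and inflammatory lists are drawn. Diamonds are myoblast-conditioned minus fresh, triangles fibroblast-conditioned minus the same fresh-medium array, and the dashed line is 2-fold lower. All diamonds lie left of that line by choice, while triangles lie from far left (Emcn and Sparcl1) to far right (Ccl2 and Cxcl1).

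Cardiomyocyte genes were mixed. Of 33 contractile genes, 3 passed 2-fold upward and 1 downward (2 and 3 on the control RNA scale), and the median was -0.15. Myh7, the slow myosin heavy chain of fetal and stressed ventricle, stood at -0.71 with fresh, 0.72 with myoblast and 0.00 with fibroblast medium, while the fast form Myh6 lay at 0.16, 0.00 and -1.94. Csrp3 and Myoz2, proteins of the Z-disc, were higher by 1.29 and 1.22. Mb, the oxygen store myoglobin, lay at 0.73, -0.69 and 0.00. Among 19 genes that mark hypertrophy or stretch, 6 passed 2-fold upward and 1 downward (5 and 1 on the control RNA scale). The list median was 0.30, or 0.01 on that scale. Its fibroblast-minus-fresh median was larger, at 0.86 before such centring. Nppb, the natriuretic peptide BNP, lay at -2.02, 0.00 and 1.68, and its relative Nppa differed by 0.30. Acta1, the skeletal alpha-actin that fetal and overloaded heart expresses, lay at 0.00, 1.73 and -0.72. Acta1 is also the 1 gene of 25 skeletal muscle markers past 2-fold, and the myoblast factors Myod1 and Myog differed by 0.00 and -0.04. None of 20 cardiac transcription factors passed 2-fold, which is near the small shares over all genes (1.35% higher and 0.844% lower).

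Smooth muscle genes and channels held a few large differences. Cnn1, the actin-binding calponin, stood at -2.69 with fresh, 0.33 with myoblast and 0.00 with fibroblast medium, an 8.13-fold difference. Acta2, smooth muscle alpha-actin, lay at -1.98, 0.00 and 0.18, and Tagln at -1.33, 0.00 and 1.42. For Cnn1 and Acta2 both conditioned media lay close together above fresh medium. Later markers of the lineage differed less, with Myh11 at 0.21 and Actg2 at 0.17, and the pericyte gene Rgs5 was at 0.00, -1.06 and 0.15. The list of 28 had a median of 0.12, which is below 0 on the control RNA scale. Its fibroblast-minus-fresh median was larger, at 0.65 before such centring. Of 27 channel and calcium handling genes, Kcnd2, a subunit of the transient outward potassium current, was at 0.00, 1.60 and -0.65. Kcne1, a potassium channel subunit, lay at -1.29, 0.00 and 1.01, and the T-type calcium channel gene Cacna1g at 0.49, -0.89 and 0.00. Kcnip2, the partner of Kcnd2, differed by -0.44.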

How the data were processed

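Per the labels' protocols, RNeasy mini kits gave total RNA, and biotin was added with Affymetrix's 3′ IVT Express kit. RMA stands in the submitters' processing notes, without version or settings. The table that the authors deposited holds log2 values for 31099 probe sets, centred on each probe set's median of the 3 arrays with the median array blank; 17117 have 2 values, 8002 have 1 and 5980 have none. Blanks were read as 0. GEO's platform annotation gave 20832 probe sets 1 symbol, 436 several and 9831 none; 20764 matched RefSeq (GRCr8) by Entrez number. Differences were averaged per symbol, and only single-symbol probe sets were used. Python 3.11.15, NumPy 2.4.6, pandas 2.3.3 and Matplotlib 3.10.9 were used, and the averaging was tested on simulated data. The number of arrays, 1 per group, limits the precision, and no test was made.

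Genes were named by a rule: the 40 largest differences each way (provisional locus symbols left out), and per list up to 4 further members in the list's direction and 3 in the other, beside defining members of each list and genes said to be singled out afterwards. The 41 gene lists and the members were chosen with earlier results of these data known. Alternatives changed the summary over probe sets, the probe sets used, the centre and the fold threshold.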

Additional observations from a re-analysis of the deposited data

How the results depend on the processing

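The counts of genes at least 2-fold higher and lower, 192 and 120, became 88 and 278 when differences were centred on the added control RNAs. At 1.5-fold they were 536 and 407, and at 3-fold 54 and 21. They stayed within 1.5 times of the first counts with the median of probe sets, without probe sets that may cross-hybridise, with only probe sets that have 2 values, with each gene's probe set of widest range over the arrays, and with the median of non-zero differences as the centre. The 80 genes with the largest differences kept their direction and stayed past 2-fold under each change of summary, probe sets or centre that gave them a value. They were picked for size, the smallest being 1.72 (Ccl27) and -1.39 (Clec4a3). Moving the centre by 0.29 could therefore not bring any of them under 2-fold. Most have 1 probe set, for which a change of summary alters nothing, so this outcome was largely fixed in advance. Centred on the control RNAs, the list medians became 0.45 for stress response regulators, 0.62 and -0.27 for cytosolic and mitochondrial tRNA synthetases, 0.38 for amino acid synthesis, -0.21 for sulfur amino acids, 0.12 for amino acid transporters, 0.22 for ER chaperones, -0.29 for EGFR and c-Met genes, -0.51 for interferon genes, -0.45 for matrix, -0.43 for cardiomyocyte genes and -0.73 for endothelial markers. Of these, the sulfur amino acid and mitochondrial synthetase medians changed sign, as did those for glycolysis (-0.10), Nrf2 targets (-0.0702), cholesterol genes (-0.0018), efflux transporters (-0.13), p53 targets (-0.24), apoptosis (-0.26), smooth muscle (-0.17) and epicardial genes (-0.14). With the widest-range probe set per gene the regulators' median was 0.97 and the endothelial one -0.63. With only 2-value probe sets the regulators' median was 0.99 and the interferon one -0.67. No paired analysis was possible because each group is 1 array and the labels give no replicate numbers. Signal over background is not recorded in centred values, so dim probes could not be left out.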

Other observations

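Probe sets that no single gene symbol names were counted apart. Of 9780 unnamed probe sets other than controls, 57 were at least 2-fold higher with myoblast-conditioned than with fresh medium and 38 at least 2-fold lower. Of the 436 probe sets with several symbols, 4 were at least 2-fold higher and 3 lower. All of these are lower shares than the 1.35% higher and 0.844% lower among the 14218 genes, which are averages over probe sets.

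The 41 lists hold 1043 of the 14218 genes and were chosen with earlier results of these data known, which favours overlap. Among the 192 genes at least 2-fold higher, 92 are on these lists, and among the 120 lower, 50 are. Several genes off the lists were among the 40 largest positive differences, in the order fresh, myoblast and fibroblast medium. Eif2b3, a subunit of the exchange factor that phosphorylated eIF2alpha inhibits, stood at -0.43, 1.31 and 0.00. Steap1, a metalloreductase family member, lay at -1.23, 1.19 and 0.00, and Lamb3, a laminin chain, at -1.46, 0.80 and 0.00. Serpinb2, an inhibitor of plasminogen activators, was at -2.05, 0.00 and 2.29, highest with fibroblast medium, while Plau, which encodes such an activator, differed by -1.08. Pcsk6, a proprotein convertase, was at -1.95, 0.00 and 0.34. Among the 40 largest negative differences, Prnd, which is on the endothelial list and is the gene of the prion-like protein doppel, lay at 1.93, 0.00 and -2.55. Xdh, xanthine dehydrogenase, which makes uric acid, lay at 0.37, -1.24 and 0.00. Sfrp2, a secreted Wnt antagonist, was at 1.26, -0.16 and 0.00 over 2 probe sets, and Pltp, the phospholipid transfer protein, at 0.70, -0.76 and 0.00. Clec4a3, a lectin of myeloid cells, was at 0.00, -1.39 and 2.23.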
